A study of Ovis aries with 6 samples.

Results

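Long noncoding RNAs (lncRNAs) that carry an Ensembl identifier were examined in sheep ovary. They were the rows of the deposited lncRNA table whose identifier begins with ENSOARG, the prefix that Ensembl gives to sheep genes. The rule took 170 of the 2455 rows of that table (6.92%), and the other 2285 rows carry the prefix MSTRG, which marks loci assembled from the reads of a study. The series holds 6 libraries of polyadenylated RNA, 3 from Hu sheep and 3 from Mongolian sheep, from ovaries collected in estrus. The labels give no treatment, genotype or age. The sample titles number the sheep of each breed from 1 to 3, but the labels do not state that each replicate is a separate animal. The p-values below therefore measure only the spread between these libraries. The series title speaks of exosomes, whereas every sample is labelled ovary. Hu ewes commonly bear several lambs and Mongolian ewes mostly 1, and the design sets ovaries of a prolific breed beside those of a less prolific one. Replicates 1, 2 and 3 of a breed are given in that order throughout.

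A lncRNA is transcribed and often spliced and polyadenylated like a messenger RNA but codes for no known protein. Many lncRNAs act on the chromatin near the place where they are made, some serve as scaffolds for proteins, and others leave a trace only because a promoter is active. As a class they are present at lower levels and in fewer tissues than messenger RNAs, and their sequences change quickly between species, so most sheep lncRNAs have no name taken from a human or mouse counterpart. An Ensembl entry records a locus annotated before the study, whereas an assembled locus is known from the study's own reads.

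The identifiers behaved as a separate class in the files. None of the 170 was paired with a symbol, and 0 also occurred in the gene table. The reference table of gene names used here holds no Ensembl identifiers, so no match to it was possible. The final digits of the 170 identifiers run from 25217 to 27005, all above the highest Ensembl number of the gene table, 25194. Position, length, sequence and function are therefore not given for any of them, and each is named by its identifier.

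Levels are given as FPKM (fragment numbers divided by the length of the transcript and the size of the library), and the depth behind each value is unknown. A value of 0 means that the transcript was listed at 0, not that it was absent. The libraries differed in how much they listed: of 14480 genes in the gene table, 6500, 7971 and 13342 were above 0 in Hu and 10547, 11463 and 10606 in Mongolian. Ovarian markers were present in the gene table, with summed levels of 26.2 to 182 FPKM for granulosa cells (4 of 7 markers listed by symbol), 16.7 to 105 for steroid-producing cells (6 of 6) and 635 to 860 for stroma (5 of 6). Of the granulosa markers, INHA and INHBA were above 0 in all 6 libraries, FSHR in 3 (at most 1.95 FPKM) and HSD17B1 in 4 (at most 6.52). Of the markers of steroid-producing cells, STAR, CYP11A1 and INSL3 were above 0 in all 6, CYP17A1 and HSD3B1 in 5 and LHCGR in 3. The oocyte markers listed by symbol (2 of 8), GDF9 and ZP3, reached 0.502 and 0.386 FPKM at most, in 1 and 2 libraries. Markers of other cells were also found, with summed levels of 366 to 805 FPKM for smooth muscle, 3.36 to 15.4 for endothelium, 6.14 to 33.0 for leukocytes and 0.34 to 28.5 for epithelium, and neither of the 2 haemoglobin genes was listed by symbol. Of the leukocyte markers, CD68 was above 0 in all 6 libraries (at most 29.1 FPKM), PTPRC in 5 (at most 3.96) and CD3E in 1 (0.98). Of the epithelial markers, KRT8 was above 0 in 5 (at most 28.4 FPKM) and PAX8 in 5 (at most 0.94). KRT18 was above 0 in 2 (at most 0.547) and OVGP1 in 1 (1.15). The highest leukocyte and epithelial sums thus came mainly from CD68 and KRT8. In bulk ovary RNA, fewer cells of a type and less RNA per cell cannot be told apart.

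The Ensembl lncRNAs were first counted library by library. They were above 0 in 68, 74 and 82 of 170 cases in the Mongolian libraries and in 30, 52 and 102 in the Hu libraries. Hu held both the shortest list (Hu 1) and the longest (Hu 3), and the Mongolian libraries lay between them. The mean was 74.7 ± 7.02 for Mongolian and 61.3 ± 36.9 for Hu (SD, n = 3 each), so the breeds differed by less than the Hu libraries did among themselves. From Hu 1 through Hu 2 and Mongolian 1 up to Hu 3 this count followed the number of genes listed in the same library, except that Mongolian 3 listed more Ensembl lncRNAs than Mongolian 2 and fewer genes. The part of library content in this count was not tested.

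The Ensembl lncRNAs were listed more often than the assembled ones in each of the 6 libraries. The share above 0 was 40.0%, 43.5% and 48.2% in Mongolian and 17.6%, 30.6% and 60.0% in Hu, against 27.0%, 28.5% and 30.9% and then 8.01%, 12.3% and 52.6% for assembled lncRNAs. The ratio of these shares was 1.48 to 1.56 in Mongolian, 2.20 in Hu 1, 2.50 in Hu 2 and 1.14 in Hu 3. At a minimum of 0.1 FPKM the order turned in Hu 3 alone, at 46.5% of Ensembl against 51.5% of assembled lncRNAs. At a minimum of 1 FPKM the order turned in 4 libraries: 15.9%, 14.7% and 21.2% of Ensembl lncRNAs reached it in Mongolian against 20.8%, 20.5% and 24.6% of assembled ones, and 16.5% against 36.8% in Hu 3. In Hu 1 and Hu 2 the Ensembl share stayed above the assembled one, at 9.41% against 6.13% and at 16.5% against 9.93%. The assembled rows include 256 (11.2%) that were above 0 in no library, and the Ensembl rows include 0 such rows. The 2 denominators are therefore not alike, and the assembled shares are lower for it. Whether the excess in Hu 3, where the ratio was smallest, holds without those rows was not tested. These shares are a description of 2 sets of rows and were given no test.

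**Figure D1:**
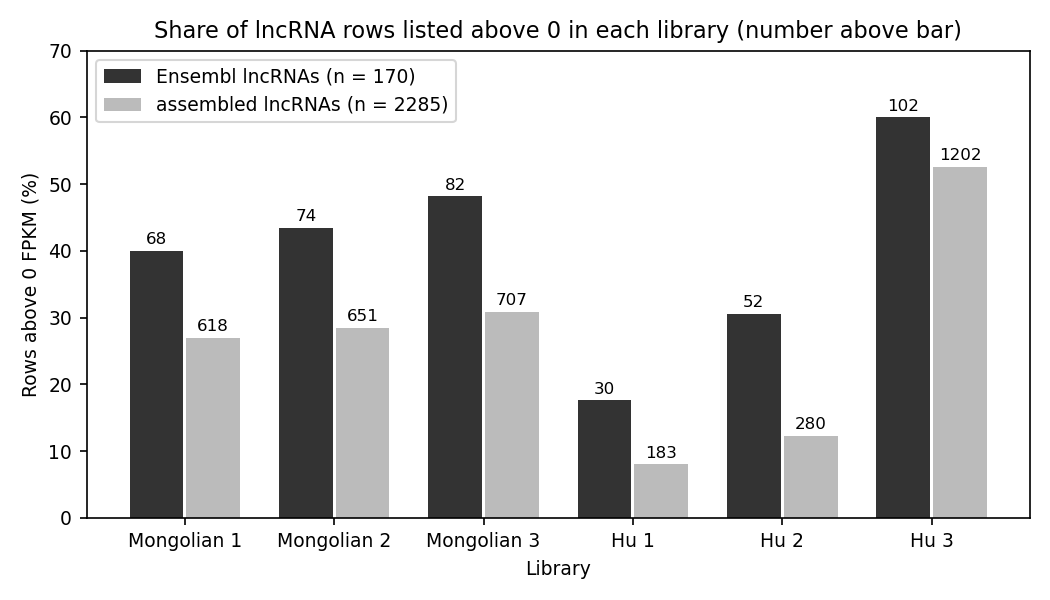
Share of Ensembl (dark bars, n = 170) and assembled (light bars, n = 2285) lncRNA rows above 0 FPKM in each library, in percent, with the number of rows above each bar. The dark bar is above the light one in all 6 libraries, and both are lowest in Hu 1 and highest in Hu 3.

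Where an Ensembl lncRNA was listed, its level was usually under that of an assembled one. The median of the listed Ensembl lncRNAs was 0.664, 0.455 and 0.907 FPKM in Mongolian and 1.04, 1.04 and 0.394 in Hu. The assembled medians were 2.64, 2.20 and 3.95 in Mongolian and 3.07, 4.17 and 1.78 in Hu, which is 2.96 to 4.83 times the Ensembl median of the same library. Hu 3, with the longest list, had the lowest median of both sets. Values under 0.1 FPKM made up 11.5% to 26.5% of the listed Ensembl values per library but 2.08% to 4.37% of the assembled ones.

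In all, the Ensembl lncRNAs held 0.26% to 1.21% of the summed lncRNA FPKM of a library. Their sums were 213, 153 and 485 FPKM in Mongolian and 171, 240 and 221 in Hu. Between 82.9% and 93.6% of each library's lncRNA sum lay in 3 assembled rows, and without those rows the Ensembl share was 2.69% to 8.05%. Only 2 to 7 of the 170 reached 10 FPKM per library.

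**Figure D2:**
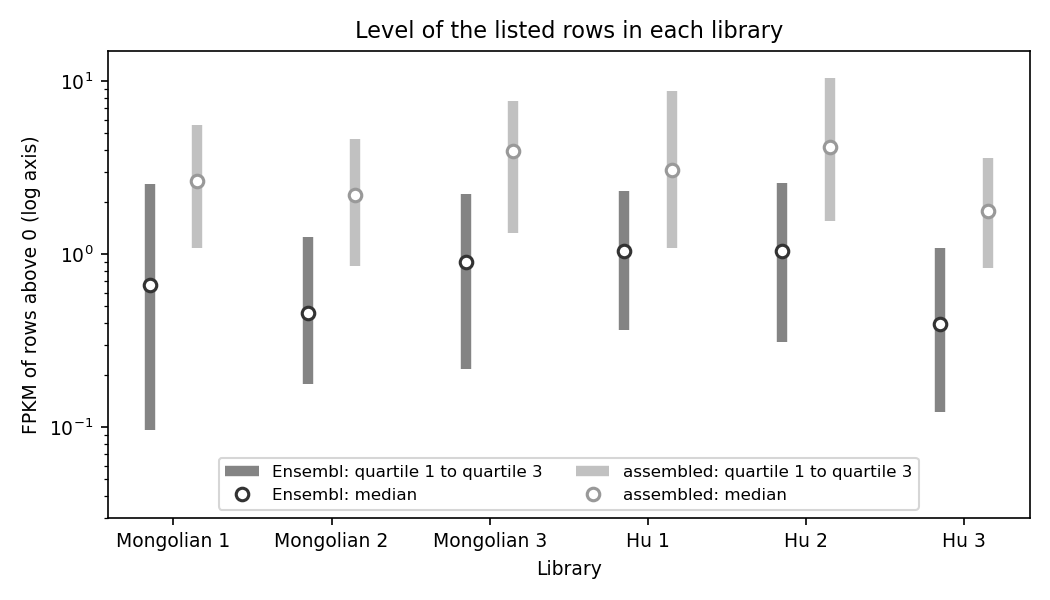
Level in FPKM (log axis) of the rows above 0 in each library: circles are medians and thick lines run from quartile 1 to quartile 3, dark for Ensembl and light for assembled lncRNAs. The Ensembl medians, 0.394 to 1.04 FPKM, lie below the assembled medians, 1.78 to 4.17 FPKM, in all 6 libraries.

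The next question was how many libraries shared a given lncRNA. Of the 170 Ensembl lncRNAs, 80 were listed in a single library (47.1%), 33 in 2, 11 in 3, 16 in 4, 15 in 5 and 15 in all 6 (8.82%). Of the 2285 assembled lncRNAs, 1277 were listed in a single library (55.9%), 76 in all 6 (3.33%) and 256 in no library (11.2%), whereas every Ensembl row was above 0 in at least 1. Ensembl lncRNAs listed in more libraries mostly had higher levels: the median of their mean over the libraries that listed them was 0.255 FPKM for 1 library, 0.453 for 2, 0.879 for 3, 0.677 for 4, 1.46 for 5 and 3.04 for 6.

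At a like highest value, Ensembl lncRNAs were spread over more libraries than assembled ones. Among rows whose highest value lay from 1 to under 10 FPKM, 10 of 62 Ensembl lncRNAs (16.1%) were listed in a single library, against 821 of 1335 assembled ones (61.5%). From 0.1 to under 1 FPKM the shares were 64.2% (43 of 67) and 87.7% (336 of 383). Among those that reached 10 FPKM, 5 of 8 Ensembl lncRNAs (62.5%) and 54 of 274 assembled ones (19.7%) were listed in all 6 libraries. Transcript lengths, which set how many FPKM a single fragment is worth, are not given for either set, and their part in this contrast was not tested.

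**Figure D3:**
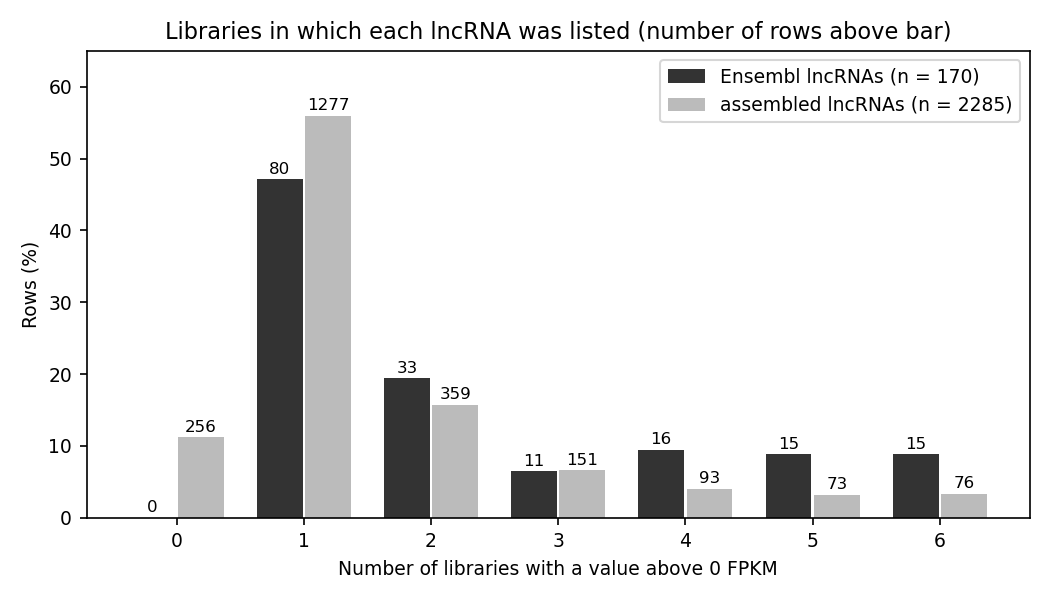
Percent of Ensembl (dark, n = 170) and assembled (light, n = 2285) lncRNA rows by the number of libraries with a value above 0 FPKM, with the number of rows above each bar. Single-library rows are the commonest class in both sets (80 and 1277 rows), and the dark bars are the taller ones at 2, 4, 5 and 6 libraries.

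By breed, 80 Ensembl lncRNAs were listed in both breeds (47.1%), 54 only in Mongolian (31.8%) and 36 only in Hu (21.2%). Of those 36, 28 were listed in Hu 3 alone and 0 in all 3 Hu libraries. A single Ensembl lncRNA, ENSOARG00000026154, was listed in all 3 Mongolian libraries and in no Hu library. Of the assembled lncRNAs 26.7% were listed in both breeds, 30.4% only in Mongolian and 31.7% only in Hu, and 17 (0.744%) in all 3 Mongolian libraries and no Hu library. Of the 725 assembled lncRNAs listed only in Hu, 633 were listed in Hu 3 alone and 1 in all 3 Hu libraries. Among assembled lncRNAs of a single library, 49.6% came from Hu 3, against 35.0% of the Ensembl ones. The weight of Hu 3 was thus not particular to the Ensembl set. The 80 Ensembl lncRNAs of a single library came mostly from Hu 3 (28) and Mongolian 3 (20), then Mongolian 1 and Mongolian 2 (14 each), Hu 2 (3) and Hu 1 (1). Of the 15 listed in 5 libraries, 8 lacked Hu 1 and 4 lacked Mongolian 3.

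Most single-library values were small, with a median of 0.214 FPKM in Hu 3 and 0.512 in Mongolian 3. The highest were ENSOARG00000026374 at 23.3 FPKM and ENSOARG00000025805 at 8.97 FPKM, both in Hu 3, and ENSOARG00000025789 at 3.6 FPKM in Mongolian 1. In Hu 3 the first of these ranked 2 among the Ensembl lncRNAs, and it was listed at 0 in the 5 other libraries.

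Among the 15 Ensembl lncRNAs listed in every library, ENSOARG00000025779 was the most abundant. It stood at 81.5, 46.3 and 319 FPKM in Mongolian and at 115, 124 and 11.6 in Hu. It ranked 1 among the Ensembl lncRNAs in 5 libraries and 6 in Hu 3, and its highest value was 27.4 times its lowest. Mongolian 3 and Hu 3 were the extremes, and the breeds overlapped (149 ± 148 FPKM in Mongolian and 83.6 ± 62.5 in Hu, SD, n = 3 each). On log2(FPKM + 0.1) Hu minus Mongolian was -0.95, standard error 0.95 (limma adjusted p = 0.92), and it was 0.17 without Hu 3. In the 5 libraries where it ranked 1 it held 30.2% to 67.6% of the summed Ensembl lncRNA FPKM. Without it the sums were 132, 107 and 166 FPKM in Mongolian and 55.4, 116 and 209 in Hu.

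ENSOARG00000026131, listed in 5 libraries, was also highest in Mongolian 3. It stood at 13.1, 8.70 and 40.0 FPKM in Mongolian and at 0, 9.71 and 3.24 in Hu, and ENSOARG00000025779 was 3.59 to 12.8 times as abundant in the libraries that listed both. Hu 2 lay within the Mongolian range and Hu 1 and Hu 3 below it. The log2 difference was -3.49 (95% confidence interval -6.73 to -0.26) with a limma unadjusted p of 0.0359 and an adjusted p of 0.67. Its size rested largely on Hu 1, the library that listed this lncRNA at 0. The difference was -1.55 without Hu 1 and -0.77 without Hu 1 and Hu 3. It was -2.86 to -4.86 when any other single library was left out.

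ENSOARG00000026007 and ENSOARG00000025366 kept high ranks in every library. ENSOARG00000026007 stood at 21.5, 19.8 and 11.8 FPKM in Mongolian and at 16.4, 18.8 and 42.4 in Hu, and ranked between 1 and 3 throughout. ENSOARG00000025366 stood at 12.8, 9.46 and 6.27 FPKM in Mongolian and at 6.06, 15.2 and 22.7 in Hu, and ranked between 3 and 6. Hu 3 was highest for both. The other Hu values lay within the Mongolian range for ENSOARG00000026007, and on either side of it for ENSOARG00000025366. Their log2 differences were 0.45 ± 0.90 and 0.49 ± 1.03 (SE), with a limma adjusted p of 0.92 for each. Together with ENSOARG00000025779 and ENSOARG00000026925 they were the 4 Ensembl lncRNAs among the 10 most abundant of every library.

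ENSOARG00000026925 was the more even of these in Mongolian, at 7.18, 8.09 and 9.0 FPKM, and stood at 3.10, 3.95 and 14.2 in Hu. ENSOARG00000025592 had a like pattern, with 6.47, 5.46 and 3.18 FPKM in Mongolian and 3.15, 5.03 and 15.6 in Hu. In both, Hu 3 was above all Mongolian libraries and Hu 1 below them, and for ENSOARG00000026925 Hu 2 was below them too. ENSOARG00000025540, listed in 5 libraries, stood at 4.31, 4.68 and 4.44 FPKM in Mongolian, an SD of 0.185, and at 0, 10.4 and 11.0 in Hu. Its log2 difference of -1.01 became 1.24 without Hu 1, the library that listed it at 0.

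ENSOARG00000025635 varied least of the 15, at 3.6, 3.17 and 5.77 FPKM in Mongolian and 3.43, 4.75 and 5.0 in Hu. Its coefficient of variation over the 6 libraries was 0.242, and its highest value was 1.82 times its lowest. The log2 difference was 0.10 with a 95% confidence interval from -2.47 to 2.67 (limma adjusted p = 0.964), an interval that allows large differences in either direction. The sign turned after rescaling to a common sum (-0.17) and without Mongolian 2 or Hu 3 (-0.07 and -0.0018).

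ENSOARG00000026818 and ENSOARG00000025943 had the widest ranges, with highest values 171 and 154 times their lowest. ENSOARG00000026818 stood at 2.07, 2.69 and 4.58 FPKM in Mongolian and at 2.13, 0.0269 and 1.10 in Hu. ENSOARG00000025943 stood at 0.703, 0.435 and 1.84 FPKM in Mongolian and at 0.0119, 0.0191 and 0.852 in Hu. The low values came from Hu 2 in the first and from Hu 1 and Hu 2 in the second, and 1 other Hu library lay within the Mongolian range in each (Hu 1 and Hu 3).

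The other 7 lncRNAs listed in every library averaged from 0.411 to 3.07 FPKM. ENSOARG00000026999 stood at 3.67, 2.54 and 4.03 FPKM in Mongolian and at 0.503, 1.83 and 5.82 in Hu. ENSOARG00000025723 stood at 5.21, 1.88 and 4.58 in Mongolian and at 2.40, 1.44 and 2.71 in Hu. ENSOARG00000026066 stood at 5.04, 1.90 and 2.41 in Mongolian and at 0.934, 2.72 and 0.812 in Hu. In each of the 3 the ranges of the breeds overlapped. ENSOARG00000025253, ENSOARG00000026856, ENSOARG00000026272 and ENSOARG00000025367 averaged 0.607, 0.603, 0.588 and 0.411 FPKM over the 6 libraries, with overlapping breeds in all 4.

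**Figure D4:**
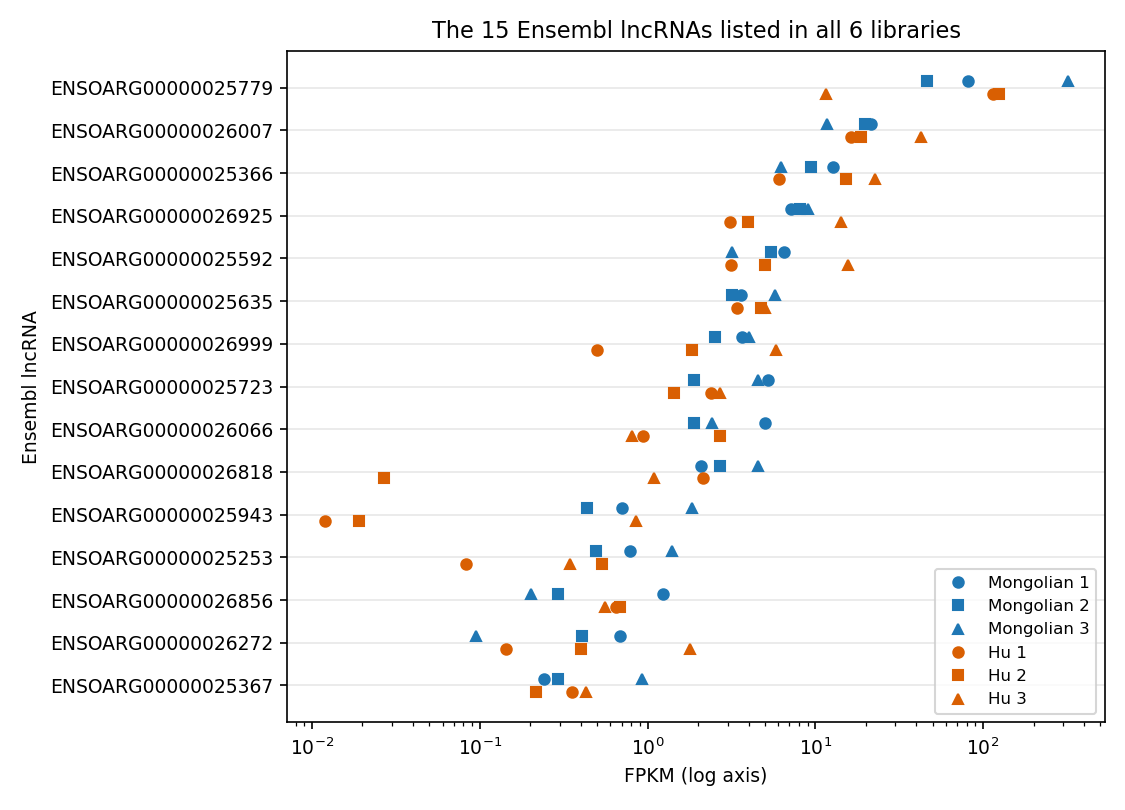
FPKM (log axis) of the 15 Ensembl lncRNAs listed in all 6 libraries, ordered by mean level, with blue marks for the Mongolian and orange marks for the Hu libraries (circle, square and triangle for replicates 1, 2 and 3). The breeds overlap in every row, and the 2 rows with the longest spread are ENSOARG00000026818 and ENSOARG00000025943.

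Over these 15, Mongolian 3 and Hu 3 each held the highest value of 6 and Mongolian 1 that of 3, and Hu 1 held the lowest value of 6. The median coefficient of variation was 0.648, close to the 0.645 of the 76 assembled lncRNAs listed in every library, and the median ratio of highest to lowest value was 6.09 against 6.05. Their median mean level was 3.04 FPKM against 7.81. The 15 held 57.0% to 90.6% of the summed Ensembl lncRNA FPKM of a library.

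Libraries were also compared by the correlation of log2(FPKM + 0.1) across Ensembl lncRNAs, as a description across rows, which are not independent replicates and of which many are 0 in both libraries of a pair. Over all 170, Pearson's r was 0.55 to 0.63 within Mongolian, 0.50 to 0.63 within Hu and 0.44 to 0.66 between breeds. The range between breeds thus spanned both ranges within a breed. The lowest value joined Mongolian 3 and Hu 3, and the highest Mongolian 2 and Hu 2.

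The breeds were then compared lncRNA by lncRNA with limma, fitted to all 417 rows of the lncRNA table that reached 0.1 FPKM in 3 or more libraries. Of the 170 Ensembl lncRNAs 47 passed this filter (27.6%), as did 370 assembled ones (16.2%), and the other 123 Ensembl lncRNAs were not tested. ENSOARG00000026154 alone among the 47 passed through values of a single breed, as did 15 assembled rows through Mongolian and 1 through Hu. The filter itself required such rows to differ, so they are counted below without being read as support. By limma with Benjamini-Hochberg adjustment, 0 Ensembl lncRNAs reached an adjusted p under 0.05, and 0 of the 417 rows did (0%). The lowest adjusted p was 0.658 among Ensembl lncRNAs and 0.232 among all rows. At an unadjusted p under 0.05, 2 Ensembl lncRNAs (ENSOARG00000026131 and ENSOARG00000026154) were lower in Hu and 0 higher, where 5.28% of all tested rows were lower and 0.719% higher. The median 95% confidence interval of an Ensembl lncRNA reached 3.64 to either side on the log2 scale. For a typical Ensembl lncRNA, a log2 difference smaller than 3.64 was therefore not told from 0, even before adjustment. The counts at a limma unadjusted p under 0.05 depended on scaling. After quantile normalization 2 of 47 were higher in Hu and 1 lower, where 11 of all 417 rows were higher and 10 lower. After median-of-ratios scaling 3 of 44 were lower and 0 higher, where 31 of all 410 were lower and 3 higher. After rescaling to a common sum 3 of 45 were lower and 0 higher, where 33 of all 412 were lower and 3 higher.

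Of the 47, 28 had a negative log2 difference (59.6%), that is a lower level in Hu, where 73.4% of all tested rows did. Their median log2 difference was -0.52, beside -1.01 over all tested rows. It was 0.66 after quantile normalization, where that of all rows was 0.09. In that setting 16 of the 47 (34.0%) had a negative difference, against 48.0% of all rows. Without Hu 1 the median was 0.06, where that of all rows was -0.30. It stayed negative after median-of-ratios scaling (-0.44) and after rescaling to a common sum (-0.71).

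In 6 of the 47 all Hu values lay below all Mongolian values and in 2 above them, where 9.11% and 1.68% of all tested rows did so. ENSOARG00000026154 stood at 3.31, 0.430 and 2.86 FPKM in Mongolian and was listed at 0 in the 3 Hu libraries, a separation that the filter required of it (limma adjusted p = 0.658). ENSOARG00000025519 stood at 2.64, 1.30 and 2.75 FPKM in Mongolian and at 0, 0 and 0.273 in Hu (log2 difference -3.84, standard error 1.90, limma adjusted p = 0.747). Without Hu 3 its adjusted p was 0.0871, the lowest of any Ensembl lncRNA in any setting. In both, Hu 1 and Hu 2, the libraries with the fewest listed genes, stood at 0.

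The other 4 separated lncRNAs lower in Hu were less far apart. ENSOARG00000026625 stood at 2.18, 1.98 and 1.52 FPKM in Mongolian and at 0, 1.12 and 1.07 in Hu. ENSOARG00000025481 stood at 1.73, 2.17 and 2.01 in Mongolian, an SD of 0.223, and at 1.07, 0 and 0.703 in Hu. ENSOARG00000025785 stood at 0.694, 0.627 and 1.15 in Mongolian and ENSOARG00000026831 at 0.798, 0.380 and 0.315, and of the Hu libraries only Hu 3 listed either, with values of 0.398 and 0.226. Each of the 4 thus had at least 1 Hu library at 0 and a limma adjusted p of 0.92.

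The 2 separated lncRNAs higher in Hu were ENSOARG00000026908 and ENSOARG00000026921. ENSOARG00000026908 had Mongolian values of 0, 0.792 and 0 FPKM and Hu values of 0.923, 0.910 and 1.79, and its log2 difference was 2.59 (95% confidence interval -1.38 to 6.56). ENSOARG00000026921 had Mongolian values of 0.346, 1.14 and 0 FPKM and Hu values of 1.44, 3.0 and 1.63, and its log2 difference was 2.41 (95% confidence interval -1.62 to 6.44). The limma adjusted p of both was 0.92. Unlike most Ensembl lncRNAs these were listed in Hu 1, and in each a Mongolian library came close to the lowest Hu value.

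A further lncRNA among the smallest p-values in the Hu direction, ENSOARG00000025521, overlapped between breeds, with Mongolian values of 0, 0.547 and 1.73 FPKM and Hu values of 1.01, 3.12 and 4.28 (log2 difference 2.35, standard error 1.87). ENSOARG00000025846 had Mongolian values of 1.17, 0.702 and 0 FPKM and Hu values of 0.363, 1.0 and 1.43, and its log2 difference of 0.98 became -0.14 without Mongolian 3. In the other direction ENSOARG00000026366 had Mongolian values of 0.964, 0 and 1.52 FPKM and Hu values of 0, 0 and 0.157. The limma threshold was passed by 0 of the 3, with an adjusted p of 0.92 each.

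**Figure D5:**
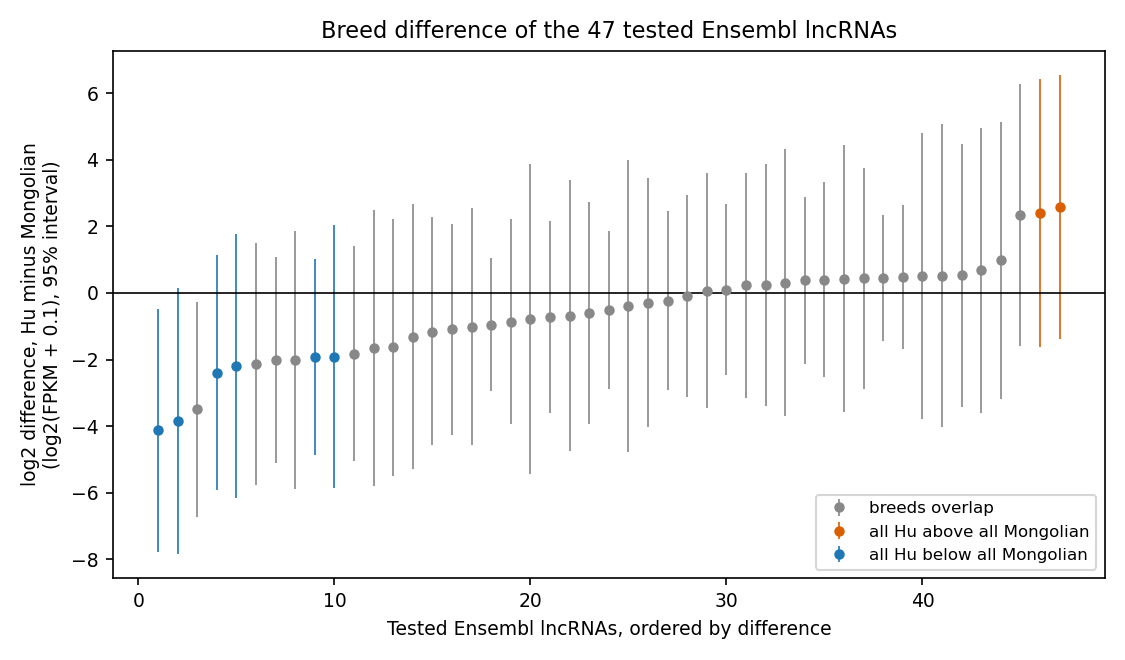
Log2 difference, Hu minus Mongolian on log2(FPKM + 0.1), of the 47 tested Ensembl lncRNAs in order of size, with unadjusted 95% confidence intervals from limma; orange and blue mark the 2 and 6 lncRNAs whose breeds did not overlap. Nearly all intervals include 0, the exceptions being the 2 lncRNAs at an unadjusted p under 0.05, ENSOARG00000026154 and ENSOARG00000026131.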

How the data were processed

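The authors deposited FPKM values per gene and per lncRNA for 6 libraries; the unit comes from the deposited tables, and the sources used here name no aligner, counting tool or build. Per the labels' protocols, 1 μg of total RNA was used per SMARTer library of polyadenylated RNA. Columns were matched to samples by the codes in the sample descriptions. FPKM divides by length and library total, so a single fragment weighs more in a short transcript or a small library. Low values showed no steps of whole reads (at most 2 rows of a library pair under 2 FPKM shared a ratio within 0.2%), so depth stayed unknown and count models were not fitted. Identical values above 0 in 2 libraries numbered 0.

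Rows that reached 0.1 FPKM in 3 or more libraries were fitted on log2(FPKM + 0.1), which understates differences of low rows, with limma 3.58.1 in R 4.3.3 (trend, breed as factor, two-sided, Benjamini-Hochberg over 417 rows), after tests on simulated data. Members and lists were chosen with earlier results of these data known. Named lncRNAs are those listed in all 6 libraries, the 8 most abundant, the 6 smallest p in each direction, those without overlap whose higher breed averaged 0.5 FPKM or more, and the 3 highest of a single library; ENSOARG00000026831 entered by p alone. Other pseudocounts, filters, scalings, weights, a replicate block and libraries left out were tried.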

Additional observations from a re-analysis of the deposited data

How the results depend on the processing

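No Ensembl lncRNA and no other row passed an adjusted p of 0.05 in limma under any of the 18 alternatives, 2 of which (only rows above 0 in all 6 libraries; Hu 1 and Hu 3 left out together) were chosen after seeing the data. The number at a limma unadjusted p under 0.05, 2 of 47 as reported, was 1 of 47 with a pseudocount of 0.01. It was 1 of 170 without a filter, 1 of 23 with a filter at 1 FPKM and 0 of 15 among rows above 0 in all 6 libraries. Over all tested rows, those settings gave 21, 32, 12 and 2 lower in Hu, in that order. They gave 3, 7, 3 and 1 higher, of 417, 2199, 294 and 91. After quantile normalization 2 of 47 were higher and 1 lower, beside 11 and 10 of all 417. The number was 0 to 5 when a library was left out, all lower in Hu. Of all 301 to 396 rows 5 to 63 were lower and 1 to 8 higher. Without Hu 3 it was 5 of 42, where 63 of all 301 rows were lower and 2 higher. The number without overlap, 8 of 47 as reported, was 4 of 23 with a filter at 1 FPKM and 5 of 47 after quantile normalization. Over all tested rows, 5 of 294 and 11 of 417 were then higher in Hu, and 23 and 21 lower. Among rows above 0 in all 6 libraries it was 0 of 15, where 0 of all 91 were higher and 3 lower. It was 8 to 13 when 1 library was left out, where 7 to 32 of all rows were higher and 37 to 105 lower. Without Hu 1 it was 13 of 45 (6 higher, 7 lower), where 32 of all 396 were higher and 44 lower. Fewer libraries make overlap rarer by construction. The median log2 difference, -0.52, was 0.66 after quantile normalization, 0.09 without Hu 1 and Hu 3, and -0.88 to 0.06 when 1 library was left out. The mean number of Ensembl lncRNAs per Mongolian library, 74.7, was 60.0 at 0.1 FPKM or more and 29.3 at 1 FPKM or more, and per Hu library it was 24.0 at 1 FPKM. The mean of the library medians was 0.989 and 2.67 FPKM at those minimums in Mongolian, and 2.66 at 1 FPKM in Hu.

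Of 28 named and tested lncRNAs, 18 kept the sign of their log2 difference in every alternative that could test them. After quantile normalization it turned for ENSOARG00000025253 (0.69), ENSOARG00000025367 (1.37), ENSOARG00000025943 (0.78) and ENSOARG00000026999 (0.50), and after rescaling to a common sum for ENSOARG00000025635 (-0.17). With 1 library left out, it ranged from -0.59 to 0.21 for ENSOARG00000025367 (turned without Mongolian 3), -2.16 to 1.24 for ENSOARG00000025540 (without Hu 1), -0.27 to 0.86 for ENSOARG00000025592 (without Hu 3), -0.07 to 0.35 for ENSOARG00000025635 (without Mongolian 2 or Hu 3), -1.55 to 0.17 for ENSOARG00000025779 (without Hu 3), -0.14 to 1.70 for ENSOARG00000025846 (without Mongolian 3) and -0.29 to 1.19 for ENSOARG00000026272 (without Mongolian 3 or Hu 3). Without Hu 1 and Hu 3 it turned for ENSOARG00000025540 (1.20) and ENSOARG00000025779 (0.22). The cause was not tested. With the replicate number as a block limma called 0 Ensembl lncRNAs, and counts at an unadjusted p under 0.05 stayed as reported. Deviations from the breed mean correlated at -0.009, -0.132 and -0.234 for same-numbered libraries across 417 rows, and at -0.073 to 0.191 for the others. Such deviations sum to 0 within a breed, so these correlations are tied to one another. They cannot tell whether same-numbered libraries were collected or processed together. With 1 Hu library left, its spread was taken to be that of the Mongolian ones.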
